A study of Mus musculus with 2 samples.

Results

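Uterine macrophages were examined in 2 single-cell libraries of whole mouse uterus. They were the cells that carried transcripts of C1q, the recognition protein of the classical complement pathway. A barcode was taken as a cell at 1000 or more UMIs (unique molecular identifiers, each standing for 1 captured transcript), 500 or more detected genes and a mitochondrial share of UMIs of 20% or less. A cell was taken as a macrophage at 5 or more UMIs of C1qa, C1qb and C1qc together and no UMI of Cd3e or Cd3g (T cells), Klre1 (natural killer cells), Pdgfra (fibroblasts) or Epcam (epithelium). The rule gave 370 macrophages among 7076 cells.

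Both libraries came from female C57BL/6J mice aged 6 months that carried Prickle1 f/f, a Prickle1 gene made deletable by recombination. The mice of the second library also carried MiC, an abbreviation that the labels leave unexplained, and the design text calls them conditional knockout (cKO). The series asks about loss of PRICKLE1, a planar cell polarity protein, in the myometrium, the muscle wall of the uterus. The labels name no Cre driver and no oestrous stage, and under genotype both are entered as wild-type. Uteri of 3 mice were pooled per group and digested for 5 hours with collagenase before droplet capture and 3' end sequencing. With 1 library per group there is no replicate check, no test was possible, and genotype, pool, oestrous stage and library batch cannot be told apart.

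Tissue macrophages take up dying cells, recycle their iron and lipid, and remodel matrix. In the uterus they are known for clearing tissue during the cycle and after birth. Part of them is seeded before birth and kept by self-renewal, and part is replaced from blood monocytes. Macrophages also answer interferons, and type I interferons act at interferon-stimulated response elements in promoters.

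The library labelled control held 45035801 UMIs over 1214689 barcodes and the library labelled cKO 34261441 over 961383, nearly all of the barcodes being empty droplets. Prickle1 did not follow the labels: over all cells it stood at 2.6 CPM (counts per 1000000 UMIs) in the control-labelled library and at 9.0 CPM in the cKO-labelled one. The labels do not give the deleted part, and 3' reads that lie outside it would check nothing. In macrophages Prickle1 gave 0 and 1 UMI, so these cells hold no check of the labels. Every direction below therefore refers to the libraries as labelled. The libraries shared 6 cell barcodes, none of them a macrophage.

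The library labelled control held 215 macrophages and the library labelled cKO 155. Their median depth was 8959 UMIs (range 1032 to 27280) in the first and 6066 UMIs (1005 to 34508) in the second, whereas all other cells had medians of 4737 and 4859 UMIs. Macrophages of the library labelled cKO were thus shallower, with 1911 against 2304 genes per cell at the median, at a like mitochondrial share (2.93% against 2.69%). Levels below are CPM of the UMIs summed over a library's macrophages, 1970661 and 1169072 UMIs in all. Intervals are exact, at 95%, and cover counting error only.

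The C1q genes themselves chose the cells and are given as a description. C1qa stood at 1237 CPM in macrophages labelled control and 1808 CPM in those labelled cKO, C1qb at 1129 and 1062 CPM, and C1qc at 805 and 1014 CPM. Of the cells with 5 or more C1q UMIs, the genes set to 0 removed 26 of 241 in the control-labelled library and 20 of 175 in the cKO-labelled one. Just inside the threshold, 24 and 23 cells had 5 to 7 C1q UMIs. Just outside it, 22 and 15 cells had 3 to 4. The cells outside carried Pf4 at 935 and 1606 CPM against 3125 and 2286 CPM inside, and Csf1r at 383 and 180 CPM against 189 and 316 CPM, so macrophage transcripts did not end at the threshold.

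Genes that the rule did not use also separated these cells from the rest. Pf4, a platelet-type chemokine made by resident macrophages, stood at 2949 and 1798 CPM in macrophages, and at 29.6 and 14.0 CPM in all other cells (the control label first here and below). Ccl8, a monocyte-attracting chemokine, stood at 1492 and 1381 CPM against 13.7 and 10.7 CPM. Adgre1, the F4/80 antigen, stood at 490 and 570 CPM against 5.5 and 4.9 CPM. Csf1r, the receptor through which macrophages survive, stood at 427 and 358 CPM against 9.5 and 8.5 CPM. The separation was weaker for Mertk, a receptor for dying cells, at 11.7 and 12.8 CPM against 3.5 and 12.2 CPM. Mertk thus set macrophages apart only in the library labelled control, whereas Pf4, Ccl8, Adgre1 and Csf1r did so in both.

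**Figure D1:**
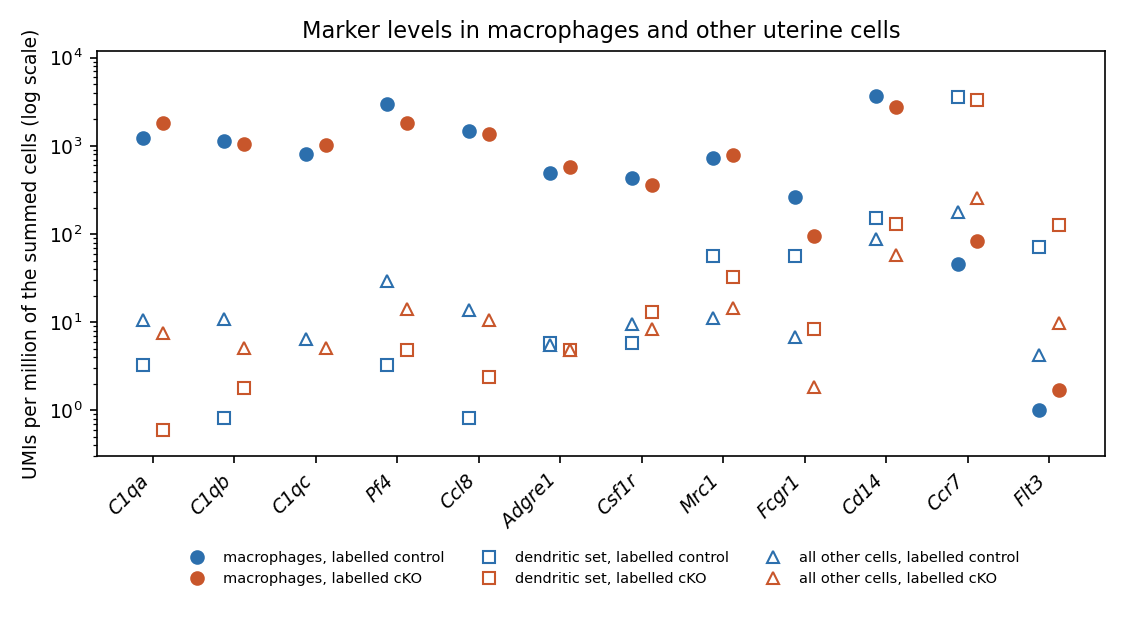
Levels of macrophage markers (C1qa to Cd14) and dendritic markers (Ccr7, Flt3) in CPM of summed cells on a log axis, for macrophages (filled circles), a dendritic set of 112 and 173 cells (squares) and all other cells, which include that set (triangles), in the library labelled control (blue) and cKO (orange). Levels of 0 are not drawn. The markers drawn from C1qa to Cd14 lie higher in macrophages than in both other groups, and Ccr7 and Flt3 lie highest in the dendritic set. C1qa, C1qb and C1qc chose the macrophages, and Ccr7 and Flt3 helped to choose the dendritic set. The positions of these genes follow from the choice of cells.

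A dendritic set was put beside the macrophages as the nearest other cell type. It held 112 and 173 cells with fewer than 5 C1q UMIs. Each had 3 or more UMIs of Flt3, Ccr7, Xcr1, Clec9a, Cd209a and Zbtb46 together. Ccr7, the receptor that guides dendritic cells to lymph nodes, was at 3624 and 3336 CPM there and at 45.2 and 83.8 CPM in macrophages, where 78 of 89 and 91 of 98 UMIs came from 1 cell each. Ccr7 helped to choose the dendritic set, so its levels are given as a description. Lyve1, a hyaluronan receptor, stood at 290 and 148 CPM in the dendritic set, against 21.3 and 43.6 CPM in macrophages. Whether the set held other cell types was not tested. Cd74, the chaperone of MHC class II, stood at 11540 and 10175 CPM in the dendritic set against 6438 and 6041 CPM in macrophages. Cd209a, a lectin of monocyte-derived dendritic cells, went the other way, at 36.9 and 20.4 CPM in the dendritic set and 61.4 and 200.2 CPM in macrophages. The list of 9 dendritic markers took 0.0151% and 0.0345% of macrophage UMIs, a log2 ratio of 1.19, with Clec9a at 0 in both libraries, and its part in the results below was not tested. In macrophages, T and natural killer cell markers made up 0.000203% and 0.000171% of UMIs, with Cd3d, Ncr1, Nkg7 and Gzmb at 0. Epithelial markers made up 0.00726% and 0.00582%. The rule left out cells with Cd3e, Cd3g, Klre1 or Epcam, so these low shares follow in part from the choice of cells. No UMI of 5 epithelial genes was found in 183 of 215 macrophages labelled control and 150 of 155 labelled cKO.

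Macrophages made up 6.16% of cells (interval 5.39 to 7.01) in the control-labelled library and 4.32% (3.68 to 5.04) in the cKO-labelled one. The log2 ratio of the shares was -0.51 (-0.82 to -0.21). The libraries differed in how many epithelial cells they held, and among cells without a UMI of 5 epithelial genes the shares were 10.6% (183 of 1734) and 4.64% (150 of 3232), a log2 ratio of -1.19 (-1.51 to -0.87). The share was lower in the library labelled cKO on both denominators, by a factor that depended on the denominator.

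Genes were compared by the log2 ratio of (CPM + 5) in macrophages labelled cKO over (CPM + 5) in those labelled control, which understates the change of low genes. At 10 CPM or more in at least 1 library, 7246 genes were compared. Past 2-fold, 209 (2.88%) were higher and 172 (2.37%) lower in macrophages labelled cKO, 5.26% in all. The median ratio was 0.13. The counts and medians of each list below are to be read beside these values for all genes. Scaling by the median of ratios brings that median to -0.0091 and the counts to 137 higher and 219 lower. For 63 of the 209 higher genes, more than 50% of the UMIs in the library labelled cKO came from 1 cell, against 6 of the 172 lower genes in the library labelled control. Without each gene's top cell, 118 of the 209 and 159 of the 172 were still past 2-fold.

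**Figure D2:**
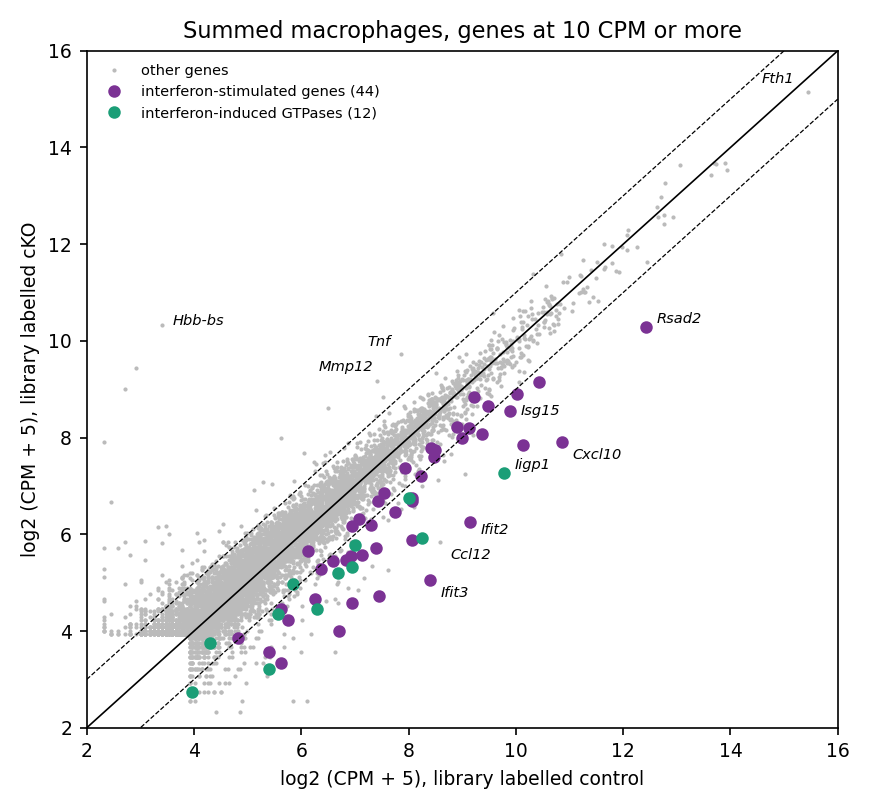
Each point is 1 of 7246 genes, with log2 of (CPM + 5) in macrophages labelled control on the x axis and in macrophages labelled cKO on the y axis; the solid line marks equal levels and the dashed lines 2-fold. All 44 interferon-stimulated genes (purple) and all 12 interferon-induced GTPases (green) lie below the line of equal levels, and Hbb-bs, far above it, rests on 1 cell.

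Interferon-stimulated genes were lower in macrophages labelled cKO. All 44 genes compared of a list of antiviral and interferon-response genes had negative ratios, 30 were past 2-fold and none was past 2-fold higher, and their median was -1.28, beside 0.13 for all genes. The list took 2.10% of macrophage UMIs in the control-labelled library and 0.725% in the cKO-labelled one, a log2 ratio of -1.53 (-1.57 to -1.50). The list holds genes that an earlier look at these libraries had already shown to be low, so its direction is no independent evidence.

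The lowest members were the Ifit genes, whose proteins bind foreign RNA. Ifit3 had 659 UMIs in 57 macrophages labelled control (334 CPM) and 33 UMIs in 6 macrophages labelled cKO (28.2 CPM), a log2 ratio of -3.35. Ifit2 had 1105 UMIs in 62 cells (561 CPM) and 84 UMIs in 9 cells (71.9 CPM), a ratio of -2.88. Ifit1 was less far apart, with 2729 UMIs in 91 cells (1385 CPM) and 661 UMIs in 29 cells (565 CPM), a ratio of -1.28, and 227 of the 661 came from 1 cell, without which the ratio was -1.80. Each of these genes was thus found in fewer cells of the library labelled cKO.

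Other arms of the response went the same way. Rsad2, the antiviral enzyme viperin, stood at 5491 and 1238 CPM, a ratio of -2.14. Cmpk2, its neighbour and partner in nucleotide metabolism, stood at 1111 and 226 CPM, a ratio of -2.27 that reached -3.52 without the top cells. Isg15, the ubiquitin-like modifier, stood at 950 and 371 CPM, a ratio of -1.34. Irf7, a transcription factor of the pathway, was at 163 and 47.9 CPM, a ratio of -1.67. The genes named here were thus all past 2-fold lower.

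Interferon-induced GTPases, which attack the vacuoles of intracellular microbes, followed. All 12 compared had negative ratios, 10 were past 2-fold lower and the median was -1.36. Iigp1 had 1723 UMIs (874 CPM) and 174 UMIs (149 CPM), a ratio of -2.52 that reached -3.10 without the top cells. Gbp2 had 591 UMIs (300 CPM) and 65 UMIs (55.6 CPM), a ratio of -2.33. Irgm1 was closer, at 252 and 104 CPM, a ratio of -1.25. Several of these genes have near-identical neighbours, so the split of reads among them is uncertain.

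Promoters of the interferon genes are shown because a shared element, the core of the interferon-stimulated response element, could be read in them. The RefSeq promoter table of build GRCm38.p6 was searched on both strands, except for a chromosome that was left out. The search looked for a pair of GAAA blocks spaced by any 2 bases, in the 250 bases before each start site. The counts below thus do not cover the whole table. The stretches lie at chr19:34583333-34583456 on the + strand (Ifit3), chr19:34640745-34640853 on the + strand (Ifit1), chr5:92349053-92349139 on the - strand (Cxcl10), chr12:26456523-26456612 on the - strand (Rsad2) and chr4:156200835-156200936 on the - strand (Isg15). They run 5' to 3' along the gene's strand, and capitals mark the motif, which appears as its reverse complement where it lies on the opposite strand.
Ifit3: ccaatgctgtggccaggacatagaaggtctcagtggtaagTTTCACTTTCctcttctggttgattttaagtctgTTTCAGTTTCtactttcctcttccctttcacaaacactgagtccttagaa
Ifit1: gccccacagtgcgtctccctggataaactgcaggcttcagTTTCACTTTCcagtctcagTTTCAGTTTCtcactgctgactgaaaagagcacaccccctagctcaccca
Cxcl10: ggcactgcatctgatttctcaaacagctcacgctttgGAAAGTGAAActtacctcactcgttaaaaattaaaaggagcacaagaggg
Rsad2: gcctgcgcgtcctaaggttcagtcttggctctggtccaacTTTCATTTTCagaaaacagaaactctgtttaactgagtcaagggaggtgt
Isg15: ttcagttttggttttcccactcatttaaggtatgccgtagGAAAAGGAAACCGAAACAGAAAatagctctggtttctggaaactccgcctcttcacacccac

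Ifit3 and Ifit1 each hold 2 copies, Cxcl10 and Rsad2 1 copy, and Isg15 3 overlapping copies. The Ifit3 stretch of 124 bases recurs unchanged before Ifit3b, at chr19:34607729-34607852, and reads of these near-identical genes may have been exchanged. The motif stood in 936 of 27025 genes with a promoter that was searched (3.46%) and in 216 of 5816 such genes compared in macrophages (3.71%). It stood in 33 of 133 genes past 2-fold lower (24.8%) and in 4 of 160 past 2-fold higher (2.5%). On the lists, 35 of the 44 interferon-stimulated genes and 8 of the 12 GTPases compared had a promoter that was searched. The motif stood in 17 of those 35 (48.6%) and in all 8 of those GTPases. Among lower genes on neither list, 16 of 101 held it (15.8%). Most interferon-stimulated list genes that were past 2-fold lower and had a searched promoter lacked these letters in the window. Ifit2, Cmpk2, Irf7 and Oasl1 were among them. A match describes the sequence and shows no binding.

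The interferon response was carried by part of the macrophages in both libraries. The list took a median of 0.501% of a cell's UMIs in the library labelled control, with a highest value of 17.1%, and a median of 0.264% in the library labelled cKO, with a highest value of 12.3%. At 1% or more stood 74 of 215 macrophages labelled control (34.4%, 28.1 to 41.2) and 18 of 155 labelled cKO (11.6%, 7.03 to 17.7). At 5% or more stood 36 (16.7%) and 5 (3.23%). Such a limit cuts a range and not a cell type, and 8 and 6 cells lay near it, from 0.8 times the limit up to the same factor above it. In the library labelled cKO, 10 cells held 54.8% of the list's UMIs, against 34.2% for 10 cells of the library labelled control.

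**Figure D3:**
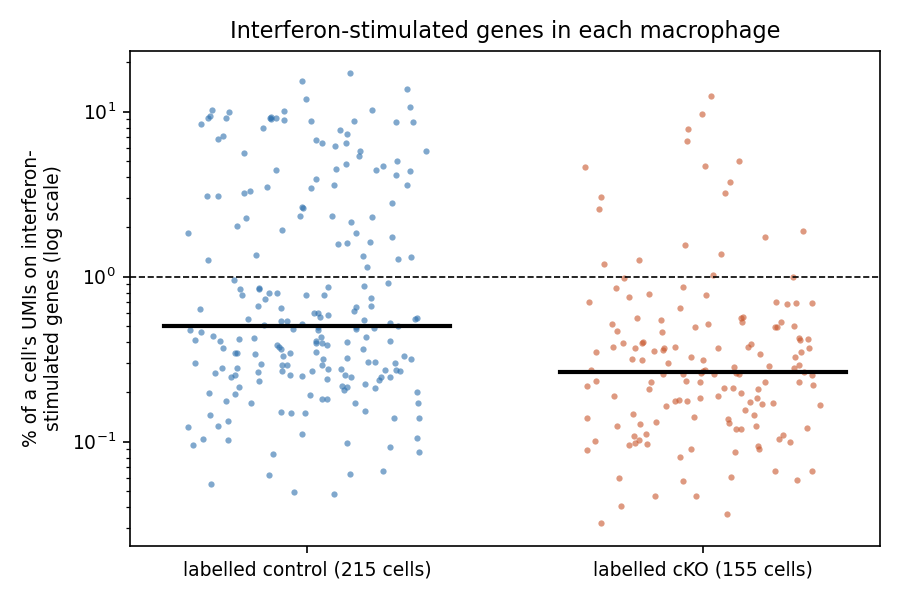
Each point is 1 macrophage, with the percentage of its UMIs on interferon-stimulated genes on a log axis; black bars are medians (0.501% and 0.264%) and the dashed line marks 1%. Above that line lie 74 of 215 cells labelled control and 18 of 155 labelled cKO, and the 2 libraries overlap over most of the range.

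Within each side of that limit the libraries were closer. Cells at 1% or more gave the list 5.35% of their UMIs in the control-labelled library and 3.99% in the cKO-labelled one, with a median ratio of the list's genes of -0.27. Cells under 1% gave it 0.361% and 0.283%, with a median ratio of -0.29. The 8 GTPases compared among the cells under 1% had a median ratio of -1.24, with Iigp1 at 273 and 37.9 CPM and Gbp2 at 151 and 24.3 CPM. The split used the list itself, so these values only describe where the difference lay.

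In the library labelled control, the 74 high cells also differed from the 141 low cells in genes outside the list. Ccl12, a chemokine for monocytes, stood at 1021 CPM in high and 35.8 CPM in low cells. Nos2, which makes nitric oxide, stood at 67.1 and 2.3 CPM, and Socs1, a brake on cytokine signalling, at 244 and 19.5 CPM. Fcgr1, the high-affinity receptor for IgG, stood at 592 and 89.5 CPM. Maf, a transcription factor of resident macrophages, stood at 1106 and 356 CPM. Lower in the high cells were Mmp12 (30.6 and 238 CPM), the lectin Clec10a (49.6 and 167 CPM) and F13a1 (220 and 465 CPM). Of the genes of the resident list, Pf4 (3492 and 2660 CPM) and Ccl8 (1667 and 1398 CPM) were higher in the high cells beside Maf, and the summed list was level at 10418 and 10192 CPM. Depth was alike, with medians of 9397 and 8791 UMIs.

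The list was also lower outside macrophages. It stood at 5508 and 1412 CPM in all other cells (log2 ratio -1.96), at 17561 and 2305 CPM in the dendritic set (-2.93) and at 4154 and 1126 CPM in barcodes under 100 UMIs (-1.88), which hold free RNA. Free RNA thus moved with the result. The empty-droplet profile was subtracted at a share set by epithelial and fibroblast marker genes, 2.04% and 9.50% of macrophage UMIs. The log2 ratio of the list in macrophages was then -1.44. In the library labelled cKO that share rests on 285 fibroblast and 68 epithelial marker UMIs. Of the fibroblast UMIs, 1 cell held 116 and another 97, so the share need not measure free RNA. The rule also barred cells with Epcam or Pdgfra, genes of these same cell types. Among Epcam-positive cells without C1q, thinned to 1000 UMIs, 17.0% carried a Rsad2 UMI in the library labelled control, at a median depth of 6635 UMIs, against 38.1% of macrophages thinned alike. In the library labelled cKO the same shares were 0 of 133 cells (0 to 2.74%), at a median depth of 7519 UMIs, and 17.4%. The unthinned shares in macrophages were 56.7% and 24.5%.

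Antigen presentation divided by class. Of 17 class I genes, none was past 2-fold higher and 4 lower, with a median of -0.58: Tap1, the peptide transporter, stood at 113 and 24.8 CPM (-1.98), and H2-Q4 at 49.7 and 20.5 CPM (-1.10). H2-T22 and Psmb8 were the other two. The abundant heavy chain gene H2-K1 stood at 2332 and 2635 CPM (0.18) and B2m, the light chain, at 4369 and 5030 CPM (0.20), so the summed list was level (1.04% and 1.07% of UMIs) and its log2 ratio of 0.03 had the opposite sign to its median. Of 11 class II genes none was past 2-fold, with a median of -0.13. H2-Ab1 stood at 2132 and 1760 CPM (-0.28) and Cd86, a costimulator, at 220 and 164 CPM (-0.41).

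Chemokines lay on both sides. Of 25 chemokine and receptor genes, 4 were past 2-fold lower and 3 higher (2.37% and 2.88% of all genes), with a median of -0.08. Cxcl10, a ligand of the receptor CXCR3, had 3638 UMIs in 73 cells (1846 CPM) and 275 in 20 cells (235 CPM), a ratio of -2.95, and Cxcl9, a ligand of the same receptor, had 194 UMIs in 14 cells and 22 in 3 cells (-2.12, or -2.98 without the top cells). Ccl12 had 746 UMIs in 52 cells and 61 in 15 cells (-2.75), and Ccl5, a T-cell attractant, 732 in 47 cells and 157 in 17 (-1.43). Among the cells under 1% on the interferon list, Ccl12 stood at 35.8 and 43.7 CPM, so its direction turned there.

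Neutrophil-attracting ligands lay on the other side. Cxcl1 had 2501 UMIs in 86 macrophages labelled control (1269 CPM) and 3130 UMIs in 71 labelled cKO (2677 CPM), a ratio of 1.07, or 0.98 without the top cells. Cxcl2 stood at 8481 and 12771 CPM (0.59), and Ccl2, a monocyte ligand, at 1506 and 2231 CPM (0.57). Ccl22 (13 and 69 UMIs) was past 2-fold higher, but 50 of its 69 UMIs came from 1 cell, and the ratio went from 2.46 to 1.31 without the top cells. Cx3cr1, the fractalkine receptor, rested on 23 UMIs in 11 cells and 46 UMIs in 12 cells (1.41).

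Among 32 inflammatory and regulatory genes, 3 were past 2-fold higher and 4 lower (2.88% and 2.37% of all genes), with a median of -0.03. Tnf, the inflammatory cytokine, had 447 UMIs in 115 macrophages labelled control (227 CPM) and 989 UMIs in 89 labelled cKO (846 CPM), a ratio of 1.88 (1.61 without the top cells, of which the one labelled cKO held 212 UMIs). Il10, an anti-inflammatory cytokine, had 351 UMIs in 59 cells (178 CPM) and 528 in 49 cells (452 CPM), a ratio of 1.32. Tnf and Il10 were thus both higher in CPM in the library labelled cKO. After thinning to 1000 UMIs, Tnf was found in 17.2% and 29.7% of macrophages and in 1.38% and 0.752% of Epcam-positive cells. Unthinned, Tnf was found in 53.5% and 57.4%. Il1b, the other leading inflammatory cytokine, stood at 1037 and 1078 CPM (0.06).

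The 4 lower genes of that list were enzymes and a regulator. Arg1, which breaks down arginine, had 251 UMIs in 20 cells and 28 in 8 cells, a ratio of -2.19. After thinning, 4.65% of macrophages labelled control carried it against 9.44% of Epcam-positive cells. Its level in that library was 127 CPM in macrophages, 74.5 CPM in all other cells and 50.9 CPM in empty droplets. How far RNA from other cells contributed was not tested. Nos2 had 49 UMIs in 11 cells and 1 UMI, a ratio of -2.35 with a counting interval of -10.19 to -2.32 for the plain ratio. Ptges, an enzyme of prostaglandin E2 synthesis, had 283 UMIs in 23 cells and 50 in 10 cells (-1.64). Socs1 had 192 UMIs in 54 cells and 32 in 22 cells (-1.66). Inhba, which encodes an activin subunit, was chosen after its values were seen: it stood at 192 and 33.4 CPM (-2.36). Except for Socs1, the listed genes were found in 23 cells or fewer of either library. Immediate early and heat shock genes, which long digestion is known to induce, were past 2-fold higher for 1 of 28 genes (0 without the top cells), with a median of 0.23, and their part in the cytokine values was not tested.

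Of 18 monocyte-derived cell genes, 5 were past 2-fold higher and 5 lower (2.88% and 2.37% of all genes), with a median of 0.10. Without the top cells 2 were higher and 5 lower, with a median of -0.06. The summed list took 0.293% and 0.484% of UMIs, and 19.3% of the latter came from 1 cell. Ly6c2, a surface antigen of inflammatory monocytes, had 71 UMIs in 11 cells and 4 UMIs in 3 cells (-2.28). Plac8 had 75 UMIs in 20 cells and 9 in 5 cells (-1.76), and Ms4a4c 196 UMIs in 30 cells and 13 in 8 cells (-2.70). These lower genes rested on few cells in each library. On the other side, Fn1, which encodes fibronectin, had 59 and 136 UMIs (1.80), of which 113 came from 1 cell, and the ratio was 0.29 without the top cells. Lyz2, lysozyme, stood at 1830 and 3550 CPM (0.95), and 1013 of its 4150 UMIs labelled cKO came from 1 cell. Ccr2, the receptor that brings monocytes into tissue, stood at 31.5 and 29.1 CPM.

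Tissue-resident macrophage genes stayed within 2-fold. None of 22 was past 2-fold in either direction, and the median was 0.10. Mrc1, the mannose receptor, stood at 733 and 798 CPM (0.12), Folr2, a folate receptor, at 199 and 237 CPM (0.25), and Selenop, a selenium carrier, at 2368 and 2055 CPM (-0.20). Pf4 had a ratio of -0.71 and Ccl24, a chemokine for eosinophils, one of -0.97, with 202 of 585 UMIs labelled control in 1 cell. In the cells positive for Lyve1, Folr2 or Timd4, described below, Ccl24 was at 81.3 and 327 CPM, a ratio of 1.94. Lyve1 was higher at 0.89 on 42 and 51 UMIs. It stood at 21.3 and 43.6 CPM, against 27.8 and 37.3 CPM in all other cells and 12.8 and 36.7 CPM in empty droplets. Lyve1 thus did not clearly set macrophages apart, and the part of background in it was not tested.

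**Figure D4:**
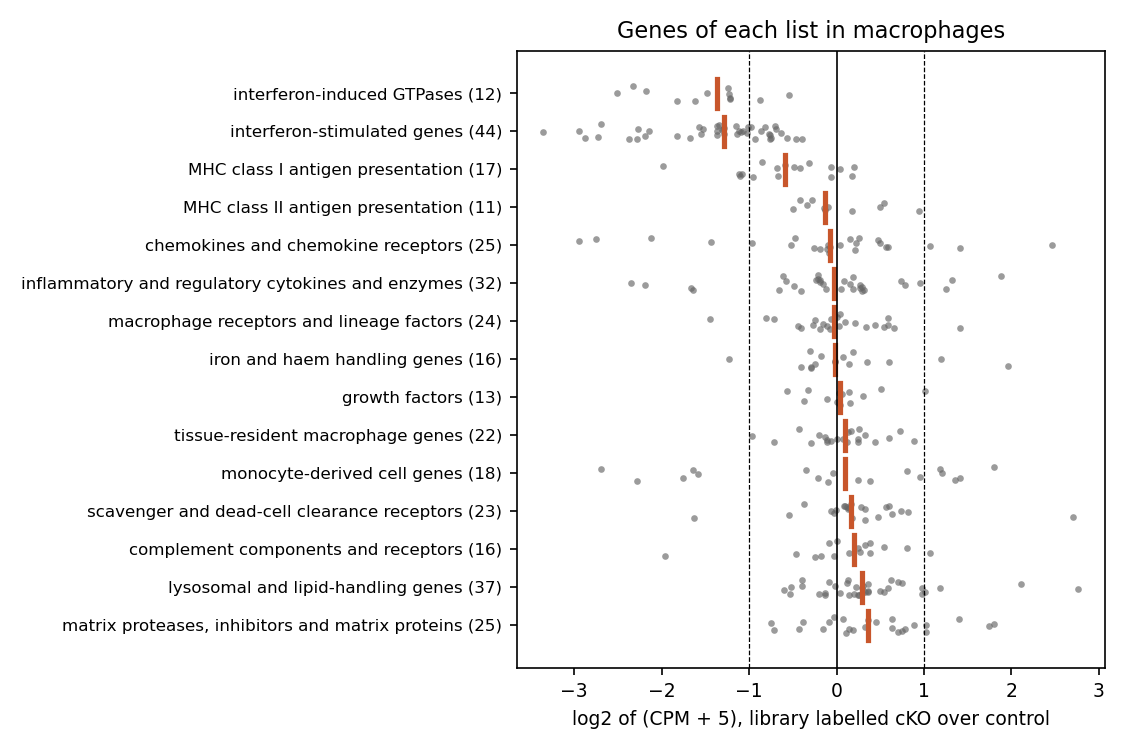
Each point is a gene at 10 CPM or more, with the log2 ratio of (CPM + 5) in macrophages labelled cKO over control on the x axis, grouped by list with the number compared; orange bars are list medians and dashed lines mark 2-fold. The medians of the interferon-induced GTPases (-1.36) and interferon-stimulated genes (-1.28) lie past 2-fold lower, and every other median lies between -0.58 and 0.36.

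Macrophages are often divided by Lyve1, Folr2 and Timd4, which mark long-lived resident cells. After thinning each cell to 1000 UMIs, 42 of 215 macrophages labelled control (19.5%, 14.5 to 25.5) and 32 of 155 labelled cKO (20.6%, 14.6 to 27.9) carried a UMI of at least 1 of these genes. Unthinned, the shares were 60.5% and 49.7%. In Epcam-positive cells without C1q 0.393% and 3.01% did so when thinned, from median depths of 6635 UMIs and 7519 UMIs. Of the thinned macrophages, 39 and 27 carried Folr2 and 4 and 7 carried Lyve1, so the division rests mostly on Folr2. Ccr2 was found in 6 and 3 thinned macrophages (2.79% and 1.94%), against 0.787% and 6.77% of Epcam-positive cells, the latter 9 of 133. In the library labelled cKO its share was thus no higher in macrophages than in Epcam-positive cells. The part of background in it was not tested. The shares of positive cells did not differ beyond counting error, and the interferon list took 2.04% of UMIs in positive and 2.11% in negative cells labelled control, and 0.748% and 0.718% in those labelled cKO.

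Several genes differed between positive and negative cells in the same direction in both libraries. Cbr2, a carbonyl reductase of resident macrophages, stood at 249 CPM in positive and 86.1 CPM in negative cells labelled control, and at 260 and 90.7 CPM in those labelled cKO. F13a1, a clotting factor subunit, stood at 636 and 323 CPM, and at 661 and 281 CPM. Ccl8 stood at 2596 and 1248 CPM, and at 2376 and 1104 CPM. The lectin Cd209f, the ficolin Fcna and Il6 went the same way. Cbr2, F13a1 and Ccl8 had like levels in the positive cells of both libraries.

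Il1b, Mmp12 and Mmp13 lay with the negative cells. Il1b stood at 104 CPM in positive and 1243 CPM in negative cells labelled control, and at 268 and 1303 CPM in those labelled cKO. Mmp12, an elastase, stood at 39.2 and 194 CPM, and at 232 and 663 CPM. Mmp13, a collagenase, stood at 359 and 916 CPM, and at 7.87 and 771 CPM. Not all genes of these kinds did so: Il6 was higher in positive cells, and the matrix protease gene Mmp19 stood at 1163 CPM in positive and 900.3 CPM in negative cells labelled control, and at 1027 and 644 CPM in those labelled cKO. The summed inflammatory list stood at 16159 and 18855 CPM, and at 18768 and 17638 CPM, so it did not lie on one side. A few genes pointed in opposite directions in the 2 libraries, which was not tested: Retnla, a marker of alternative activation, stood at 289 CPM in positive and 485 CPM in negative cells labelled control, but at 1149 and 54.7 CPM in those labelled cKO. All of its 103 UMIs in positive cells labelled control came from 1 cell, and 7 positive cells labelled cKO carried it.

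**Figure D5:**
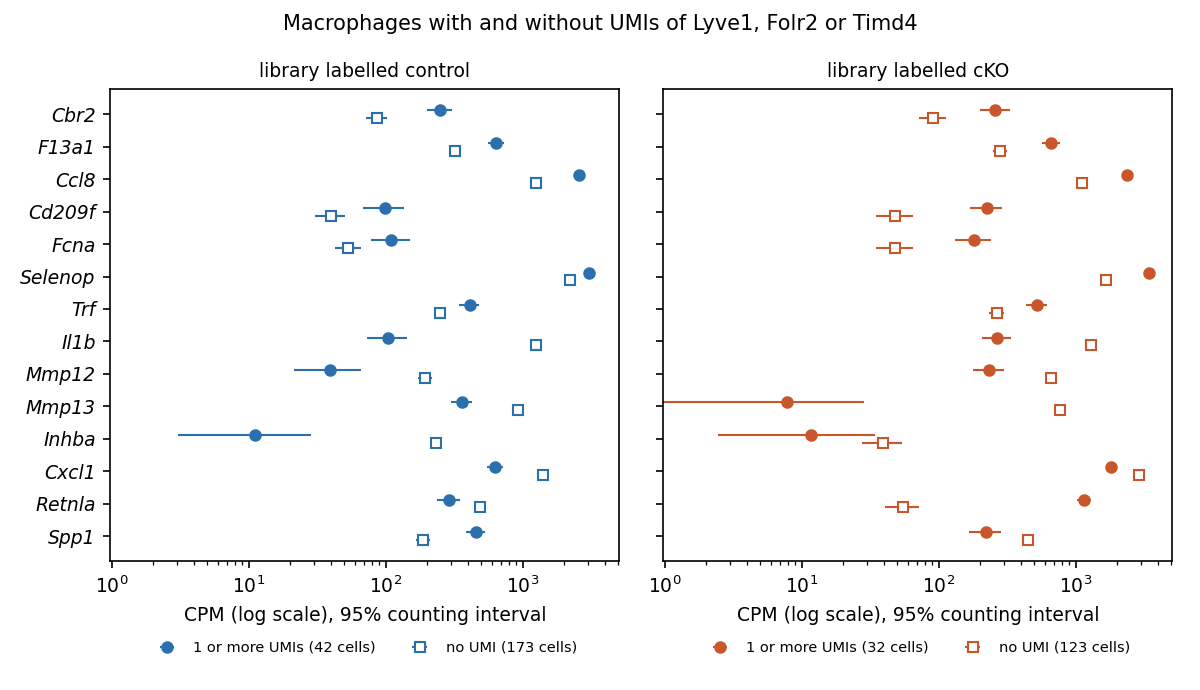
Levels in CPM on a log axis with 95% counting intervals, in macrophages with (filled circles) and without (open squares) a UMI of Lyve1, Folr2 or Timd4 after thinning, in the library labelled control (left, 42 and 173 cells) and cKO (right, 32 and 123 cells). Cbr2 to Trf lie higher and Il1b to Cxcl1 lower in positive cells of both libraries, and Retnla and Spp1 change sides.

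Of 37 lysosomal and lipid-handling genes, 4 were past 2-fold higher in macrophages labelled cKO and none lower, beside 2.88% and 2.37% of all genes. Their median was 0.29, beside 0.13 for all genes. Scaled by the median of ratios, these medians were 0.14 and -0.0091. Without the top cells, 2 were past 2-fold higher. The cathepsin genes Ctsb and Ctsd differed little: Ctsb stood at 6702 and 8006 CPM (0.26) and Ctsd at 2024 and 2540 CPM (0.33). Apoe, the lipid carrier, stood at 6986 and 9889 CPM (0.50). The larger ratios rested on few cells. Gpnmb, a glycoprotein of lipid-laden macrophages, had 168 UMIs in 28 cells and 450 in 26 cells (2.11), with 238 of the 450 in 1 cell and a ratio of 1.38 without the top cells. Atp6v0d2, a subunit of the lysosomal proton pump, had 7 UMIs in 3 cells and 62 in 9 cells (2.76), and Acp5, an acid phosphatase, 222 UMIs in 47 cells and 272 in 35 cells (1.01). Plin2, a lipid droplet coat protein, was lower at 721 and 474 CPM (-0.60). In cells positive for Lyve1, Folr2 or Timd4 the list's median was -0.0084.

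Of 25 matrix genes, 5 were past 2-fold higher and none lower, beside 2.88% and 2.37% of all genes. Their median was 0.36, beside 0.13 for all genes, and 2 were past 2-fold without the top cells. Mmp12 had 327 UMIs in 21 macrophages labelled control (166 CPM) and 666 UMIs in 26 labelled cKO (570 CPM), a ratio of 1.75, with 123 and 208 UMIs in the top cells and a ratio of 1.87 without them. The collagenase genes Mmp13 and Mmp14 stood at 815 and 605 CPM (-0.43) and at 298 and 383 CPM (0.36). Timp2, an inhibitor of these proteases, was found broadly, in 129 and 114 cells, at 194 and 362 CPM (0.88). Tgfbi, a matrix adaptor protein, stood at 292 and 455 CPM (0.63). Timp1, Timp3 and Ecm1 were the other genes past 2-fold besides Fn1, and 42 of the 70 Timp1 UMIs labelled cKO came from 1 cell (1.02, or 0.25 without the top cells). Within positive cells the list's median was -0.17. Fibroblast markers moved with this list: they took 0.00756% and 0.0244% of macrophage UMIs, and 40.7% of the latter sat in 1 cell, with 116 of these UMIs. A second cell held 97 of them and 67 of 77 UMIs of Col6a3, a collagen gene. Without the macrophages high in haemoglobin or fibroblast UMIs (2 and 4 cells above a set share of their UMIs) the list's median was 0.35. Haemoglobin UMIs were carried by 17 and 9 macrophages in all, most of which were kept.

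Iron and haem genes formed the largest share of any list, 7.54% and 6.33% of macrophage UMIs. Fth1 and Ftl1, the ferritin chains that store iron, stood at 44542 and 36381 CPM (-0.29) and at 15662 and 11842 CPM (-0.40). Hmox1, which degrades haem, stood at 13253 and 13047 CPM (-0.02), and Spic and Slc40a1, the transcription factor and iron exporter of iron-recycling macrophages, were level at 292 and 288 CPM and at 222 and 234 CPM. Of 16 genes, 2 were past 2-fold higher and 1 lower (2.88% and 2.37% of all genes), with a median of -0.02. Tfrc, the transferrin receptor that imports iron, had 162 UMIs in 58 cells and 228 in 61 cells (1.20). Steap4, a metalloreductase, had 23 UMIs in 9 cells and 70 in 13 cells (1.96), with 35 of the 70 in 1 cell. The lower gene was Lcn2.

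Complement and clearance genes were mostly level. Of 16 complement genes, counting the C1q genes that chose the cells, 1 was past 2-fold lower and 1 higher. The shares of all genes were 2.37% and 2.88%, and the median of the complement genes was 0.20. The lower gene was Cfb, which drives the alternative pathway, with 186 UMIs in 66 cells and 24 in 11 cells (-1.96). Of 23 scavenger receptors, Olr1 (12 and 79 UMIs, 37 of them in 1 cell) was past 2-fold higher and Cd300lf (31 and 2 UMIs) lower. Cd36, a lipid scavenger, stood at 2777 and 1906 CPM (-0.54). Among 24 receptors and lineage factors, Fcgr1 was past 2-fold lower with 521 UMIs in 108 cells (264 CPM) and 110 in 44 cells (94.1 CPM), a ratio of -1.44, and Cx3cr1 higher.

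Of 13 growth factors, 1 was past 2-fold higher and none lower (2.88% and 2.37% of all genes), with a median of 0.03. It was Gdf15, a stress-induced member of the TGF-beta family, at 757 and 1526 CPM (1.01), which was 0.85 without the top cells. Igf1 stood at 169 and 169 CPM and Vegfa at 337 and 227 CPM (-0.56). Of 22 cell cycle genes in the files, 6 reached 10 CPM, and Mki67 gave 20 UMIs in 9 cells and 28 in 10 cells.

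The 12 lowest genes with 30 or more UMIs were led by interferon-induced genes. Beside those named above, Ifit1bl1 had 126 UMIs in 16 cells and 1 UMI (-3.56, with -11.54 to -3.72 for the plain ratio), the protease inhibitor gene Serpina3f 103 UMIs in 23 cells and 1 UMI (-3.29, with -11.25 to -3.42 for the plain ratio), and Ifi208 116 UMIs in 38 cells and 8 in 4 cells (-2.43). Ifit3b (-2.73) completed the interferon genes of that group. Npy had 47 UMIs in 17 cells and none in the library labelled cKO, where a floor of 3 UMIs gives at least 9.29-fold lower. Prap1, a gene of epithelial secretion, had 185 and 8 UMIs (-3.06), of which 85 came from 1 cell labelled control.

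The 12 highest genes mostly traced to single cells. In 11 of them more than 50% of the UMIs labelled cKO came from 1 cell, and the top cells were 6 in all. Hbb-bs, Hba-a1, Hba-a2 and Hbb-bt, the haemoglobin genes (11 and 1501 UMIs for Hbb-bs, a ratio of 6.93, or -0.34 without the top cells), drew 3161 of 3175 UMIs from 1 macrophage, where they took 17.2% of its 18407 UMIs beside 48 C1q UMIs. Another cell, with 97 fibroblast-marker UMIs, led Tnc, Crispld2 and Col6a3. Prg4, Fmo2, Mgll and H2-M2 drew 70% to 100% of their UMIs from 1 cell each. Cd5l, a scavenger protein of tissue macrophages, was the exception, with 4 UMIs in 3 cells and 50 UMIs in 7 cells, of which 36% came from the top cell (2.76).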

How the data were processed

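Single-cell RNA of whole uterus was measured in 2 libraries of mice, 1 per group, each a pool. The authors deposited raw UMI counts per gene and barcode for all barcodes, with no normalization, written by Cell Ranger 4 per the file headers, whereas the submitters' processing notes name Cell Ranger 6.1.1 and mm10. Groups were taken from the titles. Of 32285 gene identifiers, 32158 (99.6%) are in the reference table, and 4 listed genes were not analysed here. Some single-gene results are not reported here.

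Counts were summed over macrophages per library, scaled to CPM and compared as log2 of (CPM + 5), at 10 CPM or more in 1 library; a gene was called past 2-fold. Intervals are exact (Poisson, Clopper-Pearson, conditional binomial; 95%) and cover counting error only. No doublet caller was run; instead an alternative left out macrophages above 2 times the median depth. Macrophages and lists were chosen with earlier results of these data known. Genes named are Prickle1, markers, list genes and the 12 highest and 12 lowest ratios among genes with 30 or more UMIs; the one exception is stated. Thinning used a fixed seed. The calls were tested on simulated sums of counts, in which only genes well above 10 CPM were changed. The simulation held no differences between cells, so it does not cover genes carried by 1 cell. Alternatives covered the C1q, depth and mitochondrial limits, scaling, weighting, thinning, free RNA, pseudocount, filter, single cells and ranges of macrophages. Python 3.11.15, numpy 2.4.6, scipy 1.17.1, pandas 2.3.3 and matplotlib 3.10.9 were used.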

Additional observations from a re-analysis of the deposited data

How the results depend on the processing

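Of the genes named as past 2-fold, 16 of 30 higher and 28 of 36 lower kept their sign under all 17 single-gene alternatives. Of them, 6 and 8 stayed past 2-fold. Of all settings, 20 were planned and 4 were chosen after seeing the data. The 4 left out each gene's top cell, cells high in haemoglobin or fibroblast UMIs, the list's top cells, or all but interferon-low cells. The setting without the list's top cells gave no single-gene values. The macrophage share, 6.16% and 4.32%, was 5.04% and 3.32% at 10 or more C1q UMIs, 7.84% and 5.15% at 3000 UMIs per cell, 3.93% and 3.12% with 10 more genes set to 0, and 10.6% labelled control among cells without epithelial UMIs. The 209 higher genes became 137 with median of ratios scaling, 333 with the mean of per-cell CPM, 407 and 44 with pseudocounts of 1 and 20 CPM, 51 at a minimum of 50 CPM and 107 without each gene's top cell, counted after the minimum of 10 CPM was applied again (118 of the 209 stayed past 2-fold when it was not). The 172 lower genes became 288 with 10 more genes at 0, 79 with a pseudocount of 20 CPM, 86 at 50 CPM and 106 in interferon-low cells. Thinning to 1000 UMIs per cell gave 1128 and 821, where 1 UMI is worth 4.65 and 6.45 CPM. Other causes were not tested.

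The log2 ratio of the summed interferon list, -1.53, was -1.46 at 3 or more C1q UMIs, -1.63 under the depth limit, -1.40 with 10 more genes at 0, -1.68 with median of ratios scaling, -1.59 with per-cell means, -1.62 thinned and -1.44 with free RNA subtracted. It was -1.49 in cells with no Lyve1, Folr2, Timd4 or Ccr2 UMI and -1.45 in Lyve1, Folr2 or Timd4 positive cells. Without cells high in haemoglobin or fibroblast UMIs it was -1.47, and without the list's top cells -1.77. Its direction held throughout. The share of positive cells, 19.5% and 20.6%, was 3.72% and 7.10% at 2 or more UMIs, 60.5% and 49.7% unthinned and 37.3% and 42.5% at 3000 UMIs.

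Directions of genes past 2-fold and of list medians turned as follows. Under the depth limit, Fn1 was -0.90, Timp3 -0.42 and Hbb-bs -0.26. With 10 more genes at 0, Fn1 was -2.58, Ccl22 -1.31, Hba-a1 -0.10 and Hbb-bs -0.54. With free RNA subtracted, Lcn2 was 0.41. In positive cells, Psmb8 was 0.27, Olr1 -2.13, Acp5 -0.95, Ccl22 -0.64, Hba-a2 -0.64, Hbb-bs -1.09 and Crispld2 -0.25, and the medians of the lysosomal and matrix lists were -0.0084 and -0.17. Without top cells, Hba-a1 was -0.067 and Hbb-bs -0.34. Without cells high in haemoglobin or fibroblast UMIs, Timp3 was -0.24, Hba-a1 -0.15, Hbb-bs -0.46 and Crispld2 -0.027. In interferon-low cells, Isg15 was 0.045, Ccl12 0.26 and Socs1 0.21. Of the other named genes with a ratio of 0.5 or more in size, those that turned were Ccl24 (1.94), Retnla (1.97), Lyz2 (-0.0051), Ccl2 (-0.041), Tgfbi (-0.85), Spp1 (-1.03) and Mki67 (-1.42) in positive cells, Lyz2 (-0.061) and Mki67 (-0.11) under the depth limit, and Ccr7 (-1.30) when thinned. The causes were not tested. No paired analysis was possible because each group has 1 library. Over all macrophages, 1 UMI is worth 0.507 and 0.855 CPM, which limits genes near 10 CPM.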
